A study of Gasterosteus aculeatus with 9 samples.

Results

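Carbonic anhydrases were described in the gills of 9 wild threespine sticklebacks (*Gasterosteus aculeatus*) caught along a chloride gradient in the River Boye, Germany, and its tributaries. A row of the transcript table was taken as a carbonic anhydrase when the first Swiss-Prot protein name attached to it was CAH followed by a number, or CAHZ. The rule found 25 assembled transcripts under 8 names, out of 98643 transcripts and 10495 names. The 8 names were CAH1 with 7 transcripts, CAH5B with 6, CAH4 with 5, CAH2 and CAH6 with 2 each, and CAH8, CAH9 and CAHZ with 1 each. CAH7, CAH12, CAH14 and CAH15 were the first name of 0 rows among the 98643. A further 15 rows carry a carbonic anhydrase name only after the first. Weakly expressed transcripts had been dropped from the table, so 0 rows does not show absence from the gill. The 25 transcripts belonged to 12 assembled genes, an assembled gene being a group of isoforms that the assembler built from shared reads.

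The fish came from station C (high salinity, 32 mg/L chloride), station A (mid salinity, 26.378 mg/L) and station B (the control, 12.912 mg/L), with 3 fish from each. Each fish is called here by its station and replicate number, so that C2 is the second fish of station C. Per the study, station C lay in the Kirchschemmsbach, station A in the main channel of the Boye and station B in another stream nearby. All were untreated wild fish whose whole gill tissue was used. Each station was 1 stretch of water, and any other difference between the stations cannot be told apart from chloride. The labels give no age or sex.

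Carbonic anhydrases catalyse the reversible hydration of CO2 to bicarbonate and a proton. In fish gills the enzyme serves the release of CO2, and in the ionocytes, the mitochondria-rich cells that move salts, it supplies the protons and bicarbonate that are exchanged for sodium and chloride. The members differ in where they sit. In vertebrates CA1, CA2 and the fish enzyme CAHZ are cytosolic, CA4 is anchored to the outer face of the plasma membrane, CA5B is mitochondrial, CA6 is secreted, CA9 spans the plasma membrane, and CA8 lacks catalytic activity. Each name used here is that of the closest known protein, often from another species. CAH1 rows were matched mainly to an Antarctic icefish protein and CAHZ to the zebrafish protein, while CAH5B, CAH8 and CAH9 were matched to human proteins, CAH6 to a dog protein, and CAH4 to bovine, human and rat proteins.

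The libraries held 22049066 to 46214540 estimated counts (median 35193784). Levels are given as CPM, the counts of a row scaled to library size, after TMM normalisation, a scaling that removes differences in library composition. They are shares of reads, not corrected for transcript length, so an order of names by level or by share carries no order of molecules. In these whole-tissue samples fewer cells of a type and less RNA per cell cannot be told apart. C2 stood apart from the other fish. Its median Spearman correlation with the others across names was 0.719, against 0.956 to 0.972 for the other 8 fish, and its TMM factor was 0.572, against 1.00 to 1.15. A list of liver genes took 10.4% of its counts, against 0.0259% to 0.0448% in the others. A list of muscle genes took 1.87%, against 0.101% to 1.06%. Gill markers were mixed in C2. The epithelial marker EPCAM stood at 0.300 CPM and the chloride cotransporter S12A2 at 1.24 CPM, against 12.3 to 28.9 and 68.6 to 126 CPM in the other 8 fish. The keratin K2C8 was at 1311 CPM in C2, against 2442 to 6947 CPM in the others. The keratins K1C18 and K1C13, at 434.5 and 912 CPM in C2, lay within the range of the others, and the cadherin CADH1 was at 512 CPM, against 37.8 to 54.2 CPM. The fold changes and counts of station C are therefore given with and without C2.

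CAH1, CAH4 and CAH5B together held between 87.5% and 98.2% of all carbonic anhydrase reads in every fish. CAH1 alone held between 35.3% in C3 and 78.3% in A1, CAH4 between 2.20% in C2 and 54.1% in B2, and CAH5B between 1.84% in A2 and 26.2% in C2. The summed level of all member rows was 858, 688 and 1302 CPM in C1, C2 and C3, 1398, 2080 and 611 CPM in A1, A2 and A3, and 2886, 1938 and 1564 CPM in B1, B2 and B3. All 3 fish of station C lay below all 3 of station B, an order that 8.43% of all single names had, and those of station A reached into both.

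**Figure D1:**
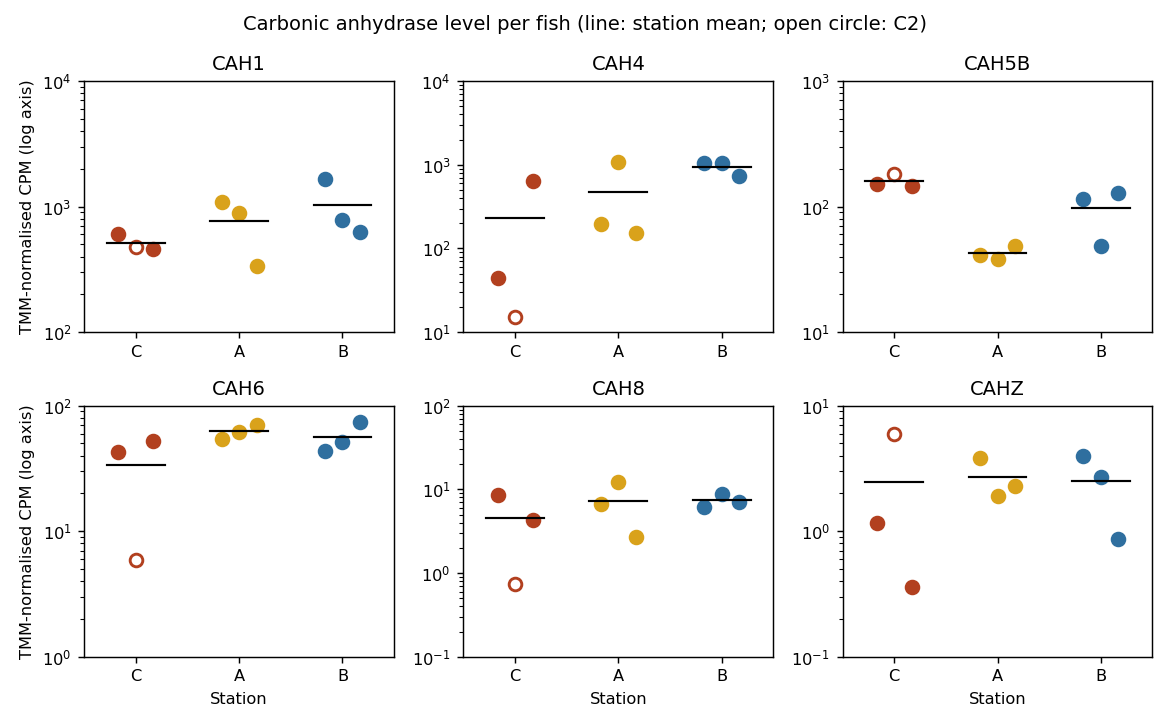
Level of 6 carbonic anhydrases in each fish, as TMM-normalised CPM on a log axis, by station (C, A, B). Each circle is 1 fish, the line is the station mean, and the open circle is C2. CAH5B lay between 146 and 180 CPM in station C and between 38.4 and 48.8 CPM in station A, with no overlap, while CAH4 in station C spread from 15.1 to 640 CPM.

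The cytosolic enzyme CAH1 was read at 609, 480 and 460 CPM in C1, C2 and C3, 1095, 891 and 335 CPM in A1, A2 and A3, and 1670, 778 and 624 CPM in B1, B2 and B3. It averaged 516 ± 80.8 CPM in station C, 774 ± 394 CPM in station A and 1024 ± 564 CPM in station B (SD, n = 3 each). The fish of station C were close to each other, whereas those of A and B each held 1 fish well apart, A3 below and B1 above the others. All 3 fish of station C were below all 3 of station B, but the highest of C and the lowest of B were only 1.02-fold apart, and on plain CPM without the TMM factors they overlapped, with C1 at 700.5 and B3 at 691 CPM.

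The log2 fold change of CAH1 in C vs B was -0.94 (SE 0.45) and did not pass the test (edgeR quasi-likelihood, adjusted p = 0.774). DESeq2 gave an adjusted p of 0.666. Without C2 the change was -0.88 (edgeR, adjusted p = 0.611), and without B1, the highest fish, it was -0.40. In C vs A it was -0.59 (SE 0.49, edgeR adjusted p = 0.934) and without C2 it was -0.51. Without A3 it was -0.94 by DESeq2 (adjusted p = 0.0231), short of the 2-fold limit of a call, and -0.93 by edgeR (adjusted p = 0.930). In A vs B it was -0.36 (SE 0.54, edgeR adjusted p = 0.929), and it turned positive when B1 was left out, at 0.18.

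Of the 7 CAH1 transcripts, all but 1 were isoforms of 1 assembled gene, DN3568_c0_g2, and which isoforms carried the reads differed from fish to fish. Isoform i10 was the only major one present in every fish, at 256, 260 and 261 CPM in C1, C2 and C3, 374, 489 and 45.0 CPM in A1, A2 and A3, and 728, 255 and 329 CPM in B1, B2 and B3. It was nearly level across station C and B2, and A3 held the least of it.

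Isoform i5 stood at 90.5 CPM in C1 and at 0 in C2 and C3, at 327, 334 and 159 CPM in A1, A2 and A3, and at 690, 255 and 0 CPM in B1, B2 and B3. Isoform i7 stood at 138, 206 and 168 CPM in C1, C2 and C3, at 71.2, 0 and 0 CPM in A1, A2 and A3, and at 0, 48.2 and 256 CPM in B1, B2 and B3. The fish with no read of i5 were C2, C3 and B3, which had the highest levels of i7 together with C1, and the fish with no read of i7 were A2, A3 and B1, in which i9 was highest. Isoform i9 was at 58.4, 54.0 and 229 CPM in A2, A3 and B1 and at or below 0.719 CPM in the other 6 fish. Isoforms of an assembled gene share reads, so the split of reads between them is an estimate, and the sum over CAH1 does not depend on it.

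**Figure D2:**
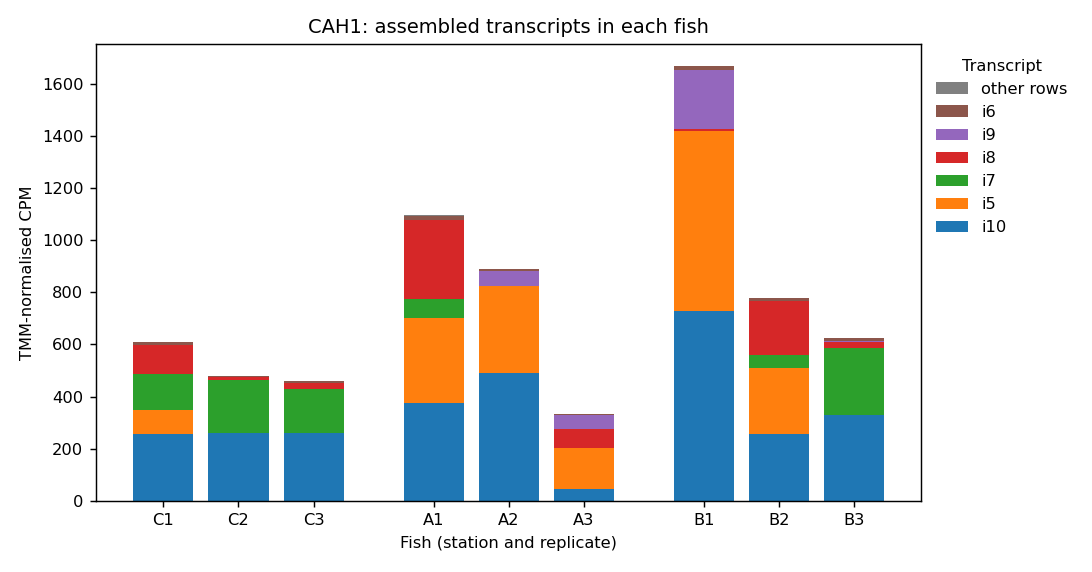
CAH1 in each fish, split by assembled transcript, as stacked bars of TMM-normalised CPM. Letters i5 to i10 are isoforms of the assembled gene DN3568_c0_g2, and the other row is a single-fish transcript seen at 0.399 CPM in A1. Isoform i5 was at 0 in C2, C3 and B3 and isoform i7 at 0 in A2, A3 and B1.

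STK39, the kinase SPAK that phosphorylates sodium-chloride cotransporters, was 3rd among the names most like CAH1 across the 9 fish. Here and for CAH4 and CAH5B below, the nearest names were picked as the best of 9251 over few fish. A high correlation so picked shows no link. The names were ranked by Pearson's correlation of log2(CPM + 1), among names that passed the expression filter, and the 5 nearest to CAH1 were IFT81 (r = 0.95), BMP10 (0.93), STK39 (0.92), MA2B2 (0.92) and PUT2 (0.92). STK39 was at 44.5, 33.8 and 43.6 CPM in C1, C2 and C3, 83.0, 52.4 and 28.0 CPM in A1, A2 and A3, and 86.1, 55.8 and 34.1 CPM in B1, B2 and B3. As for CAH1, A1 and B1 were highest and A3 lowest. Without C2 the 5 nearest were PUT2 (0.97), CYH3 (0.96), QCR2, IDHP and IFT81 (0.95 each), and STK39 was at 0.92.

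The membrane-anchored enzyme CAH4 had a 71.0-fold range from C2 to A2, and a 24.5-fold range without C2, wider in both cases than that of CAH1 or CAH5B. It was read at 43.8, 15.1 and 640 CPM in C1, C2 and C3, 196, 1074 and 151 CPM in A1, A2 and A3, and 1049, 1048 and 726 CPM in B1, B2 and B3. The 3 fish of station B were alike, station A held 1 fish at their level (A2) and 2 far below, and station C held C3 just below them and 2 further down. CAH4 averaged 233 ± 353 CPM in station C, 474 ± 520 CPM in station A and 941 ± 186 CPM in station B (SD, n = 3 each), so that the SD exceeded the mean in both C and A.

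All 3 fish of station C were below all 3 of station B in CAH4, the nearest being 1.13-fold apart, and this held on plain CPM. The log2 fold change in C vs B was -1.97 (SE 1.36) and did not pass the test (edgeR quasi-likelihood, adjusted p = 0.774). Without C2 it was -1.42 (edgeR, adjusted p = 0.670). DESeq2 set CAH4 aside as holding an outlying count in C vs B and in C vs A and gave no p. In A vs B the change was -0.94 (SE 0.75, edgeR adjusted p = 0.857), and in C vs A it was -1.03 (SE 1.52, edgeR adjusted p = 0.946; -0.45 without C2). With the replicate number as a block, A vs B was -1.55 (edgeR, adjusted p = 0.793; DESeq2, adjusted p = 0.0505). Here and below the block is an alternative fit only, since the labels tie no fish to another.

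Single fish decided these CAH4 values. When A2 was left out, A vs B became -2.40 and passed the DESeq2 test (adjusted p = 2.97e-18), and edgeR's adjusted p over the fits that left out each fish lay between 0.221 and 1.00. When C3 was left out, station C held only C1 and the outlying C2. DESeq2 then called CAH4 lower in C vs B (log2 fold change -4.94, adjusted p = 2.15e-13) and in C vs A (-4.01, adjusted p = 0.0153). The share of all names called in these fits was not set beside these calls. Without A2, C vs A turned positive, at 0.42.

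Nearly all CAH4 reads belonged to 1 isoform, i8 of the assembled gene DN2806_c0_g1. It was at 36.6, 0 and 608 CPM in C1, C2 and C3, 129, 1023 and 136 CPM in A1, A2 and A3, and 1024, 1033 and 711.5 CPM in B1, B2 and B3, and it held 65.5% to 98.5% of the CAH4 reads in the 8 fish other than C2. Isoform i10 of the same gene held 97.7% of the few CAH4 reads of C2. Its levels were 2.91, 14.8 and 10.4 CPM in C1, C2 and C3, 56.9, 28.2 and 13.4 CPM in A1, A2 and A3, and 6.98, 6.07 and 7.47 CPM in B1, B2 and B3.

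In isoform i10 all 3 fish of station A were above all 3 of station B, the nearest being 1.79-fold apart. The share of all transcripts with such an order was not counted. Isoform i10 was the only CAH4 transcript that passed a test in the fits of 6 fish without a block: DESeq2 called it higher in A vs B (log2 fold change 2.28, SE 0.63, adjusted p = 0.0225), and the quasi-likelihood test did not (2.26, edgeR adjusted p = 0.905, unadjusted p = 0.00807). With the replicate block it was 2.05 and missed the threshold (DESeq2, adjusted p = 0.0753). The direction of i10 was thus opposite to that of the name CAH4, whose sum was lower in A1 and A3 than in any fish of B. The remaining CAH4 transcripts were i24 of the same gene, between 0 and 22.7 CPM, DN3285_c1_g1_i5, read only in B1 and B2 at 0.938 and 4.70 CPM, and DN45756_c0_g1_i1, at or below 0.350 CPM in every fish.

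The name nearest to CAH4 over the 9 fish after TM230 (r = 0.96) was FXI1C, a forkhead factor of the Foxi group (r = 0.95), members of which specify ionocytes in zebrafish skin. FXI1C was at 1.98, 0.100 and 7.09 CPM in C1, C2 and C3, 7.45, 10.6 and 4.12 CPM in A1, A2 and A3, and 18.7, 9.87 and 8.78 CPM in B1, B2 and B3. UBAD2, FAM3C and CUTA followed at r = 0.94 each. Without C2 the nearest name was SPYA (r = 0.93), FXI1C stood at r = 0.91, and UBAD2 and CUTA were no longer among the 5.

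CAH1 and CAH4 were set beside an ionocyte list, which does not hold FXI1C. It holds 7 names, of which CFTR, BSND and FOI1C had no row under these codes. The 4 with rows were the sodium pump subunit AT1A1, the cotransporters S12A2 and S12A3, and the transcription factor FOXI1, and all 4 were above 3 counts in every fish. Their summed level was 3703, 739 and 3776 CPM in C1, C2 and C3, 7493, 5907 and 1546 CPM in A1, A2 and A3, and 5721, 5413 and 4083 CPM in B1, B2 and B3. C2 and A3 were lowest, as they were among the 3 lowest fish in CAH4 and, for A3, the lowest in CAH1. Across the 9 fish Pearson's correlation of the log levels with the list was 0.71 for CAH1, 0.74 for CAH4 and -0.44 for CAH5B, and without C2 it was 0.84, 0.41 and -0.15. Spearman's correlation was 0.87, 0.73 and -0.78 in the same order, and 0.90, 0.62 and -0.69 without C2. The points share their libraries and scaling, and the part of the ionocyte list in the levels of CAH1 and CAH4 was not tested. The members of the list did not run together, since S12A2 was at 126, 1.24 and 118 CPM in C1, C2 and C3, 68.6, 80.3 and 114 CPM in A1, A2 and A3, and 86.1, 97.7 and 111 CPM in B1, B2 and B3, with A3 the highest of its station. FOXI1 was at 136, 0.250 and 139 CPM in C1, C2 and C3, 291, 220 and 60.6 CPM in A1, A2 and A3, and 256, 193 and 115 CPM in B1, B2 and B3. AT1A1, the highest of the 4 on average, was at 2469, 726 and 2418 CPM in C1, C2 and C3. It was at 5272, 3522 and 1026 CPM in A1, A2 and A3, and at 3156, 2724 and 1989 CPM in B1, B2 and B3.

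**Figure D3:**
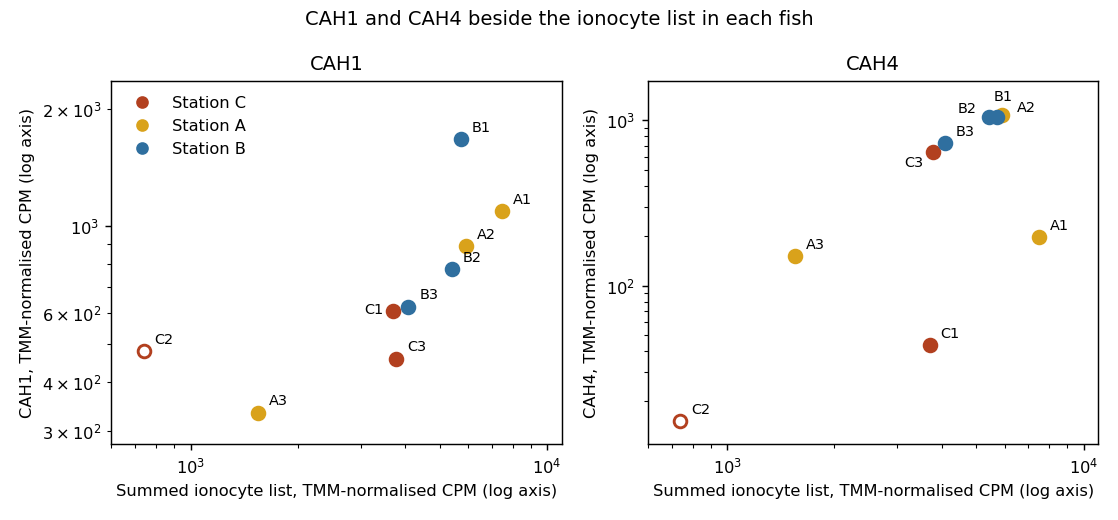
CAH1 (left) and CAH4 (right) in each fish against the summed level of the 4 ionocyte names, both as TMM-normalised CPM on log axes, coloured by station, with C2 as an open circle. CAH1 lay at 335 CPM where the list was at 1546 CPM (A3) and at 1095 CPM where it was at 7493 CPM (A1), while C1 and C3 had nearly the same list level and 43.8 and 640 CPM of CAH4.

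Red blood cells also carry cytosolic carbonic anhydrase. A list of 8 red cell names, of which 6 had rows and 5 were above 3 counts in every fish, summed to 4477, 17110 and 3408 CPM in C1, C2 and C3, 14150, 6459 and 9020 CPM in A1, A2 and A3, and 13370, 10570 and 4887 CPM in B1, B2 and B3, most of it the beta globin HBB2. A1 and B1, the fish with most CAH1, were also the highest of their stations in this list, and C2, the highest of all, was not high in CAH1. C2 was highest in the globins HBB2 (16110 CPM) and HBA2 (716 CPM). The anion exchanger B3AT was lowest in C2, at 23.7 CPM against 116 to 570 CPM in the other fish. RHAG and HEM0 in C2, at 253 and 5.20 CPM, lay within the range of the others. The correlation of CAH1 with the list was 0.36 over 9 fish and 0.59 without C2, and the part of red cells in the CAH1 level was not tested. The gill epithelium list of keratins and cell adhesion genes ran the other way, with a correlation to CAH1 of -0.58 over 9 fish and -0.87 without C2, and was highest in A3 at 8501 CPM. Most of that sum was the keratin K2C8, while K1C18 stayed between 420 and 541 CPM in every fish and K2C5 was highest in B1, at 14.4 CPM.

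The mitochondrial enzyme CAH5B was the only member whose name sum passed a test in the fits of 6 fish, in C vs A by DESeq2. It was read at 150.5, 180 and 146 CPM in C1, C2 and C3, 41.4, 38.4 and 48.8 CPM in A1, A2 and A3, and 114, 48.2 and 129 CPM in B1, B2 and B3. C1, C2, C3, B1 and B3 stood high, A1, A2, A3 and B2 stood low, and no fish lay between 48.8 and 114 CPM. CAH5B averaged 159 ± 18.5 CPM in station C, 42.8 ± 5.37 CPM in station A and 97.2 ± 43.1 CPM in station B (SD, n = 3 each).

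All 3 fish of station C were above all 3 of station A, the nearest pair being 3.00-fold apart and 2.04-fold on plain CPM. The log2 fold change in C vs A was 1.89 (SE 0.19). It ranked 3rd of 9075 names by unadjusted p (6.999e-05) in edgeR's quasi-likelihood test, with an adjusted p of 0.212, so that it did not pass the threshold of 0.05, although no name had a smaller adjusted p. DESeq2 called it (log2 fold change 1.90, adjusted p = 9.53e-21), as it did in all 6 fits that left out 1 fish (adjusted p between 4.99e-24 and 4.44e-11). Without C2 the change was 1.82 (edgeR, adjusted p = 0.0935).

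In A vs B the log2 fold change of CAH5B was -1.15 (SE 0.36), with the levels of the stations overlapping through B2 (edgeR, adjusted p = 0.775; DESeq2, adjusted p = 0.161). With the replicate number as a block, for which the labels give no basis, it was -1.03. DESeq2 called it in that fit (adjusted p = 0.0463; 0.216% of all names were called lower), whereas the blocked edgeR fit did not. When B2 was left out it was -1.48, and DESeq2 called it (adjusted p = 7.34e-12). In C vs B it was 0.74 (SE 0.40, edgeR adjusted p = 0.774) and 0.65 without C2. All 3 fish of station C were above all 3 of station B at a distance of 1.13-fold, which did not hold on plain CPM, where C2 was at 103 and B1 at 117 CPM.

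All 6 CAH5B transcripts were isoforms of the assembled gene DN1070_c0_g1, and isoforms i18, i8 and i9 separated the same fish as the sum did, while i1, i2 and i19 did not. Isoform i18 was read at 57.2, 45.6 and 75.6 CPM in C1, C2 and C3, at 0 in A1, A2 and A3, and at 55.2, 0 and 65.3 CPM in B1, B2 and B3. Isoform i8 was at 23.9, 11.4 and 31.2 CPM in C1, C2 and C3, 2.30, 0.726 and 0.710 CPM in A1, A2 and A3, and 27.0, 2.02 and 25.2 CPM in B1, B2 and B3. Isoform i9 had the opposite pattern, at 0, 1.27 and 0 CPM in C1, C2 and C3, 7.21, 17.7 and 14.9 CPM in A1, A2 and A3, and 0, 29.6 and 0 CPM in B1, B2 and B3.

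Isoforms i18 and i9 were read in the same fish only in C2. B2 carried the isoforms of the fish of station A, with 61.3% of its CAH5B reads on i9, and B1 and B3 carried those of the fish of station C, with 48.4% and 50.5% on i18. Isoform i1 was read in every fish, at 57.5, 115.5 and 37.4 CPM in C1, C2 and C3, 27.5, 16.6 and 24.7 CPM in A1, A2 and A3, and 27.8, 5.67 and 29.9 CPM in B1, B2 and B3. In i1 all fish of station C were above all fish of station A, by 1.36-fold at the nearest, and of station B, by 1.25-fold. The share of all transcripts with such an order was not counted.

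**Figure D4:**
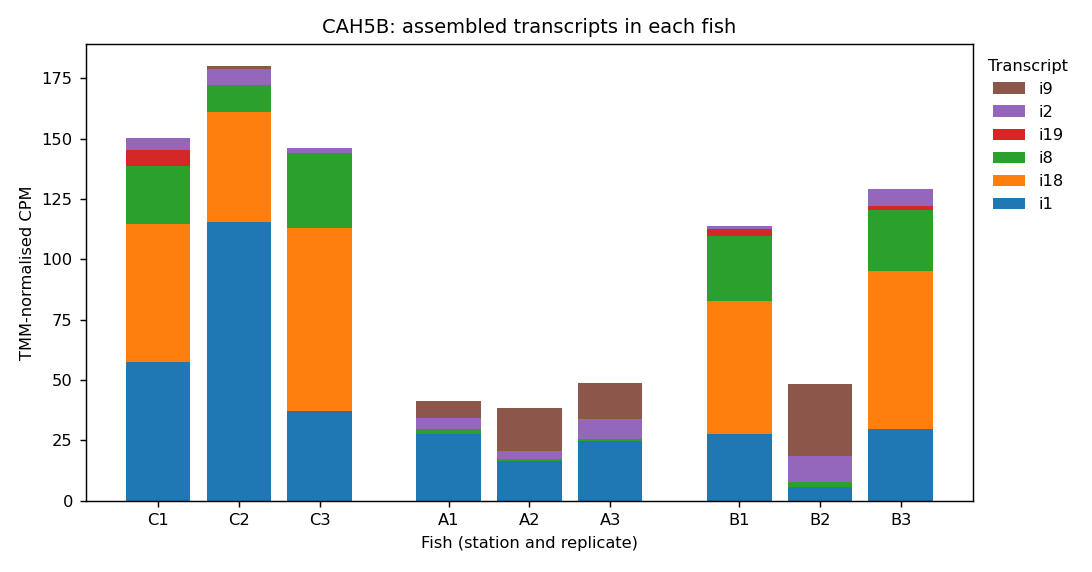
CAH5B in each fish, split by assembled transcript, as stacked bars of TMM-normalised CPM. Letters i1 to i19 are isoforms of the assembled gene DN1070_c0_g1. Isoform i18 was present in C1, C2, C3, B1 and B3 at 45.6 to 75.6 CPM and at 0 in A1, A2, A3 and B2, where isoform i9 was at 7.21 to 29.6 CPM.

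Against the limit that 3 counts per library set in station A (0.0979 CPM on average), i18 was 608-fold higher in station C on the means, and 466-fold in the lowest fish of C. These are counting limits only. The split of reads between isoforms is an estimate, so they set no lower bound on the fold. The sum over CAH5B, which does not depend on the split, averaged 159 CPM in station C and 42.8 CPM in station A. In C vs A, i18 passed the expression filters of both tools through the fish of station C alone. Isoform i8 passed the filter of DESeq2 through station C in C vs A and through station B in A vs B. It had 52, 31 and 24 counts in A1, A2 and A3, which sufficed for the filter of edgeR. The tests of i18 and i8 there are given as a description. DESeq2 called i18 higher in C vs A (adjusted p = 3.33e-23; 5.98e-22 without C2), and the quasi-likelihood test did not (adjusted p = 0.129; 0.200 without C2). DESeq2 also called i8 higher in C vs A (log2 fold change 4.18, SE 0.72, adjusted p = 5.87e-07; edgeR 4.15, adjusted p = 0.178; 4.46 by both without C2) and lower in A vs B (-3.84, SE 1.09, adjusted p = 0.0296; edgeR -3.85, adjusted p = 1.00). The presence of i18 in all fish but A1, A2, A3 and B2 was shared by 585 of the 98643 transcripts (0.593%), 203 of them with a protein name.

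The 5 names nearest to CAH5B were CEL1B (r = 0.98), CTL2B, RB6I2 (0.98 each), LSM14 and TAF4B (0.97 each), and all had the same high and low fish. CTL2B was at 151, 296 and 130 CPM in C1, C2 and C3, 30.3, 28.6 and 31.9 CPM in A1, A2 and A3, and 143, 27.4 and 143 CPM in B1, B2 and B3. LSM14, an RNA-binding protein of messenger RNA granules, was at 94.5, 97.7 and 95.3 CPM in C1, C2 and C3, 45.7, 51.1 and 56.4 CPM in A1, A2 and A3, and 96.1, 56.7 and 97.7 CPM in B1, B2 and B3. Without C2 the nearest was ENPL, a chaperone of the endoplasmic reticulum (r = 0.99), and CTL2B, LSM14, TAF4B and CEL1B remained among the 5.

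The secreted enzyme CAH6 was even across 8 fish and low in C2. It was at 42.7, 5.94 and 52.2 CPM in C1, C2 and C3, 54.5, 61.9 and 70.5 CPM in A1, A2 and A3, and 43.2, 51.7 and 74.3 CPM in B1, B2 and B3. All 3 fish of station C were below all 3 of station A, by only 1.04-fold at the nearest, and on plain CPM they overlapped. The log2 fold change was -0.89 in C vs A (SE 0.74, edgeR adjusted p = 0.934) and -0.37 without C2, -0.70 in C vs B (SE 0.77, edgeR adjusted p = 0.827) and -0.21 without C2, and 0.18 in A vs B (SE 0.23, edgeR adjusted p = 0.915). Its 2 transcripts lie in an assembled gene of 13 rows, of which the other 11 carry the sugar transporter GTR5 as first name and a carbonic anhydrase after it.

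The catalytically inactive member CAH8 was read at 8.64, 0.750 and 4.36 CPM in C1, C2 and C3, 6.70, 12.3 and 2.71 CPM in A1, A2 and A3, and 6.21, 8.79 and 7.10 CPM in B1, B2 and B3. Its log2 fold change was -0.66 in C vs A, -0.62 in C vs B and 0.03 in A vs B, with an edgeR adjusted p of 0.946, 0.845 and 0.996, and without C2 it was -0.14 in C vs A and -0.13 in C vs B. C2 was lowest, and the other 8 fish overlapped between all stations.

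The cytosolic enzyme CAHZ was at 1.16, 5.90 and 0.357 CPM in C1, C2 and C3, 3.86, 1.90 and 2.30 CPM in A1, A2 and A3, and 3.95, 2.71 and 0.871 CPM in B1, B2 and B3. C2 had the highest level and C3 the lowest, as in the red cell list and its beta globin HBB2. HBB2 was at 3709, 16110 and 2800 CPM in C1, C2 and C3. It was at 12660, 5567 and 8129 CPM in A1, A2 and A3 and at 11960, 9366 and 4227 CPM in B1, B2 and B3. HBA2 was also highest in C2 and lowest in C3. B3AT was lowest in C2, and RHAG, HEM0 and HBE were highest elsewhere. The part of red cells in the CAHZ level was not tested. The log2 fold change was -0.14 in C vs A (SE 1.02, edgeR adjusted p = 0.982) and -0.01 in C vs B (SE 1.08, edgeR adjusted p = 0.998). Without C2 it was -1.80 in C vs A and -1.66 in C vs B, neither of which passed (edgeR, adjusted p = 0.770 and 0.611). In A vs B it was 0.13 (edgeR, adjusted p = 0.976).

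CAH2 was read in C1, A3 and B3 only, at 1.98, 1.04 and 2.27 CPM, with 0 counts in the other 6 fish, which allows up to 0.150 CPM in C2 and up to 0.133 CPM in A1 at 3 counts per library. These are counting limits only. Its 2 transcripts were matched to a mouse and to a Japanese dace protein, and both were seen in these same 3 fish, 1 from each station. The transcript that carries the carbonic anhydrase domain without any protein name, DN121592_c0_g1_i1, was read in the same 3 fish, at 1.56, 0.686 and 1.61 CPM. This presence was shared by 898 of the 98643 transcripts (0.910%), 487 of them with a name. CAH9 had at most 4 counts in any fish, and no fold is given for it or for CAH2.

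**Figure D5:**
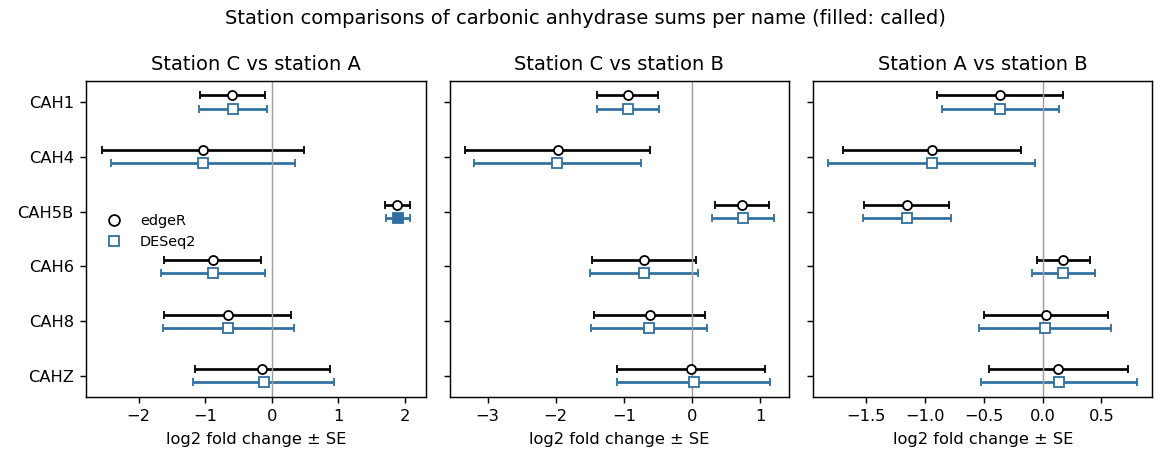
Log2 fold change with its SE for 6 carbonic anhydrases in C vs A, C vs B and A vs B, from edgeR (circles) and DESeq2 (squares). A filled symbol is a call (fold above 2 with adjusted p no larger than 0.05), and CAH5B in C vs A by DESeq2 is the only one. Scales differ between panels.

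Over the names, 6 of the 8 members passed the expression filter of edgeR, CAH2 and CAH9 being the others, and the quasi-likelihood test called 0 of the 6 in each comparison, with a background of 0.0% of all names called. It called 0 of 9075 names in C vs A, 0 of 9012 in C vs B and 0 of 9052 in A vs B, and 286, 345 and 556 names had an unadjusted p under 0.05. DESeq2 kept 7 members after its filter, gave no p for CAH2 in any comparison, and called 1 higher in C vs A, CAH5B, where 0.295% of all names were called higher, and 0 in C vs B and in A vs B, where 0.114% and 0.421% of all names were called. The median log2 fold change of the 6 members was -0.63 in C vs A, -0.66 in C vs B and -0.17 in A vs B, against 0.02, 0.03 and 0.01 for all names. Without C2, CAH2 was tested as well, and the median of the 7 members was -0.37 in C vs A and -0.21 in C vs B. The medians with and without C2 thus cover different names, and their difference is not the effect of C2 alone. In the fits without C2 edgeR called 0 members and 0 names. DESeq2 called CAH5B higher in C vs A (0.377% of names called higher) and 0 members in C vs B.

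Without overlap, 1 of the 6 members was higher in C vs A (CAH5B; 4.17% of all names) and 1 lower (CAH6; 4.72%). In C vs B 1 was higher (CAH5B; 5.49%) and 2 were lower (CAH1 and CAH4; 8.43%). In A vs B 0 members were higher (4.37%) and 0 lower (7.82%). Without C2, CAH5B was higher in C vs A (10.6% of all names) and CAH6 and CAHZ were lower (12%), and CAH5B was higher (11.1%) and CAH1 and CAH4 lower (18%) in C vs B. Over the transcripts, 18 members were tested by edgeR in C vs A, 18 in C vs B and 17 in A vs B, with 0 called and 0.0% of all transcripts called. DESeq2 called 2 members higher in C vs A (i18 and i8 of CAH5B; 1.42% of transcripts were called higher), 0 in C vs B (1.36% called), and 2 in A vs B, with i10 of CAH4 higher (0.678% called higher) and i8 of CAH5B lower (0.71% called lower). Because i18 and i8 of CAH5B passed the filter of DESeq2 through 1 station alone, nothing is read from these counts. Without C2, DESeq2 also called i9 of CAH5B lower in C vs A (adjusted p = 3.32e-11, with 2.06% of transcripts called higher and 2.12% lower). Isoform i9 was at 0 in C1 and C3 and passed the filter through station A alone, so nothing is read from that call. In C vs B without C2, DESeq2 called i5 of the CAH6 gene DN7644_c0_g1 lower (-1.22, adjusted p = 0.00691, with 2.44% called lower). With the replicate block in A vs B it called i9 of CAH5B higher (1.37% called higher) and i8 of CAH5B and i7 of CAH1 lower (1.16% called lower), where i9 was read in 1 fish of station B and i7 in 1 fish of station A.

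The partners of carbonic anhydrases in acid-base and salt exchange were taken from a list of 50 proton pump subunits, sodium-proton and chloride-bicarbonate exchangers, ammonia channels and cotransporters, of which 34 had rows and 27 were tested. The quasi-likelihood test and DESeq2 called 0 of the 27 higher and 0 lower in each comparison, and at an unadjusted p under 0.05 edgeR had 0 in each, while DESeq2 had 2 in C vs B, where 7.06% of all names had such a p, and 0 in the others. Their median log2 fold change was -0.22 in C vs A, -0.14 in C vs B and 0.06 in A vs B, and without C2 it was -0.20 in C vs A and -0.08 in C vs B. At an unadjusted p under 0.05 without C2, DESeq2 had 6 of 27 in C vs B (13.2% of all names) and edgeR 4 of 28 (8.06%). In C vs A without C2 both had 0. Without C2 DESeq2 called 1 partner, the cotransporter S12A3, lower in C vs B (log2 fold change -1.01, adjusted p = 5.12e-09; 0.242% of names called lower), and edgeR called 0. The bicarbonate cotransporter S4A4 (-0.91, DESeq2 adjusted p = 0.000229) and the pump subunit VATA (0.44, DESeq2 adjusted p = 0.0490) fell short of the 2-fold limit. S12A3 was at 971, 11.9 and 1102 CPM in C1, C2 and C3, 1861, 2085 and 345 CPM in A1, A2 and A3, and 2223, 2399 and 1868 CPM in B1, B2 and B3.

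The 6 partners with the highest mean share of reads were AT1A1, S12A3, RHCG, RHBG, RHCG1 and SL9A3. The sodium-proton exchanger SL9A3, which in fish gills works beside cytosolic carbonic anhydrase, was at 376, 0.308 and 362 CPM in C1, C2 and C3, 949, 559 and 108 CPM in A1, A2 and A3, and 738, 823 and 226 CPM in B1, B2 and B3. The ammonia channel RHCG was at 801.5, 6.63 and 657.5 CPM in C1, C2 and C3, 673, 1621 and 241 CPM in A1, A2 and A3, and 1170, 2391 and 1007 CPM in B1, B2 and B3. C2 had almost none of either, and A3 was the lowest of the remaining 8 fish in both. The log2 fold change in C vs B was -1.21 for SL9A3 and -1.58 for RHCG, with an edgeR adjusted p of 0.861 and 0.797. Without C2 it was -0.63 and -1.01, with an edgeR adjusted p of 0.721 and 0.600.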

How the data were processed

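Gill RNA of 9 fish was sequenced, and stations and replicate numbers came from the sample labels. Per the study's methods the authors cleaned the reads in Trimmomatic and built 1 transcriptome from all fish in Trinity. They then dropped weakly expressed transcripts, quantified the rest in Salmon and attached protein names through Trinotate. The authors deposited expected counts (estimated counts) per transcript and fish, without normalisation, and 48.8% of the values are whole (tolerance 1e-09). No genome was used, so no position is given, and no sequence is shown.

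The estimated counts were rounded and summed per first Swiss-Prot name. Each comparison of 6 fish was fitted with edgeR 4.0.16 (R 4.3.3; filterByExpr, TMM, quasi-likelihood test) and with DESeq2 1.42.0 (Wald test, rows above 1 CPM in at least 2 fish), with Benjamini-Hochberg adjustment over all names or transcripts tested. DESeq2 at its default settings can leave rows of low mean count and rows with an outlying count out of its adjustment. A call needs a fold above 2 with adjusted p no larger than 0.05. The SE beside an edgeR value is derived as the size of the log2 fold change over the square root of F and is not fitted. With 3 fish against 3, the smallest p of an exact test is 0.1. Levels use TMM factors over all 9 fish. Absence means at most 3 counts in a library. Tables and figures were made with Python 3.11.15, pandas 2.3.3 and matplotlib 3.10.9. The edgeR test on names and transcripts and DESeq2 on names were run on simulated counts modelled on stations A and B. DESeq2 on transcripts, the blocked fits, the fits with a fish left out and the fits with station C were not checked in this way.

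Named transcripts are the 12 with the highest mean level, those called by either tool and those with an unadjusted p of at most 0.01. Members and lists were chosen with earlier results of these data known. Alternatives were DESeq2 with filterByExpr, RLE size factors, no filter, all 9 fish in one fit, the replicate number as a block, each fish left out, sums per assembled gene and the second protein entry as the name. DESeq2 with each fish left out (for transcripts, C2 only) or with the block, and plain CPM, were added after seeing the data. Same-numbered fish of A and B deviated together from their station means (r = 0.127, 0.157 and 0.384 for numbers 1, 2 and 3). A2 and B1, of unlike number, had r = 0.215, so these values do not show that the numbers pair the fish. The labels tie no 2 fish to each other.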

Additional observations from a re-analysis of the deposited data

Results flagged for a closer look

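Reads that lie beside carbonic anhydrase transcripts, in rows that the name rule leaves out, stood above the control station in C2. In the assembled gene DN2806_c0_g1, which holds 3 of the CAH4 transcripts, 2 further isoforms have no protein name, and they summed to 127 CPM in C2, against 1.83, 6.83 and 8.67 CPM in B1, B2 and B3. In C1 and C3 they were at 1.43 and 5.51 CPM. The level of this assembled gene in C2 was therefore 142 CPM, while the CAH4 rows alone gave 15.1 CPM. In the assembled gene DN3285_c1_g1, which holds 1 CAH4 transcript, 4 isoforms carry the metalloprotease MMP25 as first name, and they summed to 115 CPM in C2, against 15.4, 15.0 and 20.97 CPM in B1, B2 and B3.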

How the results depend on the processing

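The tool decided the calls. Where edgeR's quasi-likelihood test called 0 carbonic anhydrases and 0 features in all, DESeq2 with the CPM filter called 37 names in A vs B, 10 in C vs B and 65 in C vs A, and with filterByExpr 36, 12 and 62. Over transcripts it called 626, 611 and 1096, and with filterByExpr 579, 729 and 1371. Under both filters it called 1 member name in C vs A (CAH5B) and 2 member transcripts each in A vs B and C vs A. One edgeR fit of all 9 fish called 5 transcripts in C vs A, 9 in C vs B and 1 in A vs B, with 0 members among them. RLE size factors, no filter, sums per assembled gene and the second entry as the name left the members' count of calls at 0 in edgeR.

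Leaving out each fish in turn, in edgeR and DESeq2 together, gave 0 to 1 called member names in A vs B, 0 to 1 in C vs B and 0 to 2 in C vs A, the second being CAH4 without C3. Over all names it gave 0 to 130, 0 to 182 and 0 to 172 calls. With 2 fish left at a station, the spread is shared with the other station. The log2 fold changes that changed sign ranged from -0.69 to 0.18 for CAH1 in A vs B, from -4.01 to 0.42 for CAH4 in C vs A, from -0.62 to 0.42 for CAH8 in A vs B, and for CAHZ from -0.27 to 0.63 in A vs B, from -1.66 to 0.54 in C vs B and from -1.81 to 0.40 in C vs A. CAHZ in C vs B, near 0, also turned positive with DESeq2 (0.0155 with filterByExpr and 0.0229 with the CPM filter), RLE size factors (0.00956) and all 9 fish (0.00437). CAH6 in A vs B turned to -0.45 with the second entry as the name, which changes the rows that are summed under it. The sum over its whole assembled gene, rows led by GTR5 included, stood at 0.14 in edgeR. The cause of these changes was not tested.

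With the replicate number as a block, edgeR called 0 names and 0 transcripts, as it did without it. DESeq2 with the block called 74 of 8785 names and 1144 of 45101 transcripts in A vs B, with 1 member name (CAH5B) and 3 of 19 member transcripts. In C vs B it called 10 of 8737 names and 998 of 45053 transcripts, with 0 members. In C vs A it called 32 of 8822 names and 1411 of 45713 transcripts, with 1 member name and 6 of 18 member transcripts. Without C2 and without the block, DESeq2 called 1689 of 43680 transcripts in C vs B, with 1 of 18 members. In C vs A it then called 1852 of 44329, with 3 of 18 members. Some of the members called in C vs A, such as i18 of CAH5B, were read at 1 of the compared stations only, so nothing is read from these counts. CAH8 in A vs B turned to -0.21 under the block in edgeR and -0.20 in DESeq2, and CAH4 moved to -1.55. In C vs B and in C vs A same-numbered fish did not deviate together (r between -0.19 and 0.00, and between -0.14 and -0.06), so the numbers pair nothing there. CAH9, with at most 4 counts, and CAH2, read in 3 fish, are at the limit of this depth.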
